A study of Mus musculus with 6 samples.

Results

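Sprr1a, Krtdap and S100a11 are 3 genes of keratinocytes, the barrier cells of skin, that were followed here in the stem cells of the olfactory epithelium. They are 3 of the 8078 gene entries in the deposited expression table, and each was read in all 6 libraries. The genes were chosen by their FPKM in the injured and uninjured libraries, which were already known, so their levels and differences are a description and carry no test. Both groups were 12-week-old B6 mice carrying KRT5-CreER and Ai9 fl(Stop)TdTomato, given tamoxifen 2 weeks before the cells were sorted. In the 3 injured libraries the mice had breathed methyl bromide gas at 180 ppm for 8 h and the tissue was taken 18 h later. In the 3 uninjured libraries the epithelium was left undisturbed. The Cre recombinase acts only where the keratin 5 promoter is active, so red TdTomato fluorescence marks horizontal basal cells and any keratin 5 cell or its descendants in the dissociated tissue. Each library pooled sorted cells from several animals, which makes the library the replicate. Values are FPKM, that is, sequenced fragments scaled by transcript length and library size. A difference is the injured mean minus the uninjured mean of log2(FPKM + 1).

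Horizontal basal cells are the quiet reserve stem cells of the olfactory epithelium, and methyl bromide destroys most of the cells above them. In skin, keratinocytes that meet a wound switch on genes of stress and altered differentiation. Sprr1a encodes a small proline-rich protein that transglutaminases cross-link into the cornified envelope, the tough shell under the membrane of a differentiating keratinocyte. Krtdap encodes a small secreted protein made when keratinocytes of stratified epithelia begin to differentiate. S100a11 encodes a calcium-binding protein of the S100 family that binds annexins, takes part in membrane repair, and is also cross-linked into the cornified envelope. Sprr1a is known besides from injured peripheral neurons and stressed heart muscle cells, and S100a11 from many other cell types, so neither marks keratinocytes alone.

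The 250 bases before the annotated start of each gene are shown because all of them hold letters bound by AP-1, the Fos and Jun transcription factors long known to act on Sprr and other keratinocyte genes. They come from RefSeq on build GRCm38.p6, in which 3 of 3 genes were matched by symbol. Each is written 5′ to 3′ along the gene, ends at the base before the start, and has matches to TGANTCA in capitals.
Sprr1a, minus strand, chr3:92485882-92486131: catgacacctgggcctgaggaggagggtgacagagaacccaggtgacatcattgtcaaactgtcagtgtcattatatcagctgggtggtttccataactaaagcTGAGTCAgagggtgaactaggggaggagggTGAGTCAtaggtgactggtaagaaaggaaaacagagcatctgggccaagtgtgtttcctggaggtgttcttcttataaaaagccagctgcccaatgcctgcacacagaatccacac
Krtdap, plus strand, chr7:30787655-30787904: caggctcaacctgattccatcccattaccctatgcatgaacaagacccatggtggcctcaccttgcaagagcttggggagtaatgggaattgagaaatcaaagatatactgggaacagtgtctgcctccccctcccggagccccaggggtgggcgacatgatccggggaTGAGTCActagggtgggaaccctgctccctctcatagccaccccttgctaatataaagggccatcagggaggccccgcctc
S100a11, plus strand, chr3:93520246-93520495: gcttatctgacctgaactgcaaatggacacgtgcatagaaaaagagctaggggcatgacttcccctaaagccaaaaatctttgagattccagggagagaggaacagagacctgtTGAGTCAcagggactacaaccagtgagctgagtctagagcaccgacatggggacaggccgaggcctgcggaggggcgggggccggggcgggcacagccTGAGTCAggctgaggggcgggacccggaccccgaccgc

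Every AP-1 match in these windows read TGAGTCA. Sprr1a had 2 of them, with first bases 146 and 116 bases before the start, Krtdap had 1 at 81 bases, and S100a11 had 2 at 136 and 38 bases. Of 32851 RefSeq mouse promoter windows of the same length, searched on both strands, 6.75% held at least 1 match to TGANTCA and 0.338% held 2 or more. Among the 5820 genes tested here that had a window, taken at the first listed start of each, 4.21% held at least 1. TATAAA, the TATA box that places the start in many tissue-restricted genes, was found in the windows of Sprr1a and Krtdap, 43 and 30 bases before the start, and in 12.4% of all windows. It was not found in that of S100a11, whose window was 60.0% G and C, against 49.6% for Sprr1a and 56.4% for Krtdap. TTCNNNGAA, the letters bound by STAT factors, stood in 7.02% of all windows and in none of the 3. The motif letters do not overlap one another, and a match shows letters, not binding.

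**Figure D1:**
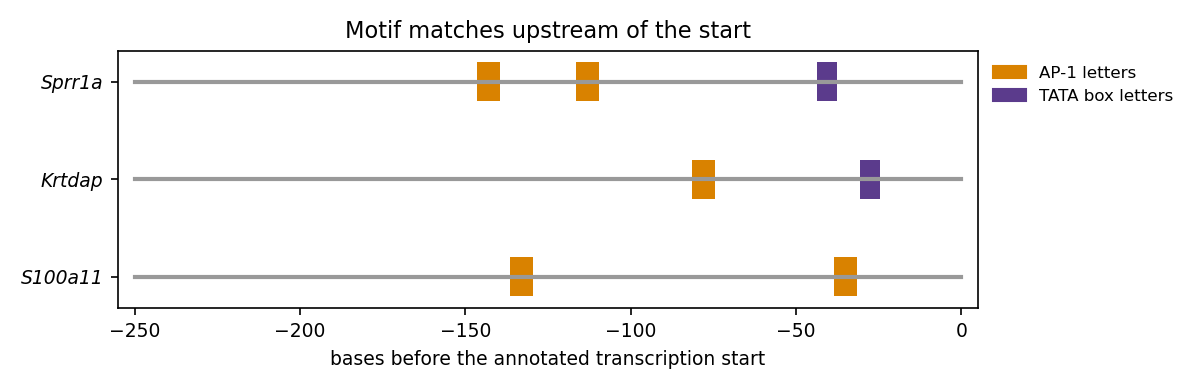
Positions of AP-1 letters (TGANTCA, orange) and TATA box letters (TATAAA, purple) in the 250 bases before the annotated start of each gene, with the x axis in bases and the start at 0. All 3 genes show at least 1 orange block, and S100a11 shows no purple one.

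The libraries were not alike within the injured group. Over the 7987 genes whose mean reached 1 FPKM, log2 values correlated at 0.885 to 0.905 between uninjured libraries, at 0.849 between injured replicates 1 and 3, and at 0.734 and 0.754 between injured replicate 2 and each of them. Injured replicate 2 correlated better with uninjured replicates 1, 2 and 3, at 0.804, 0.83 and 0.811, than with either other injured library. For injured replicates 1 and 3 the values with uninjured libraries were 0.788 to 0.805 and 0.803 to 0.825. Genes are not independent replicates, so these are descriptions. Injured replicate 2 was the lowest of the 3 injured libraries for 46.8% of all genes tested. The differences of the 3 genes, the list medians and the calls below are therefore also given without it. Xist, whose RNA coats and silences 1 X chromosome of female cells, had 0.0645, 0.346 and 0.561 FPKM in the injured libraries, in the order of their replicate numbers, against 27.4, 33.8 and 27.0 FPKM in the uninjured ones. It was the single gene of 7987 past an adjusted p of 0.05 (limma with Benjamini-Hochberg adjustment, adjusted p = 0.000223), and injury and a difference in the sex of the pools cannot be told apart in what follows. The uninjured libraries also differed among themselves. Eif2s3y, on the Y chromosome, had 23.0, 29.3 and 21.1 FPKM in the injured libraries against 18.8, 2.73 and 2.55 in uninjured replicates 1, 2 and 3, and Ddx3y, also Y-linked, likewise stood nearer to the injured levels in uninjured replicate 1, at 6.67 FPKM, than in the other two. In these pooled cells, fewer cells of a type and less RNA per cell cannot be told apart either.

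Sprr1a, the cornified envelope precursor, had levels of 63.9, 21.8 and 57.7 FPKM across injured replicates 1, 2 and 3 and at 4.78, 6.31 and 7.0 FPKM in uninjured replicates 1, 2 and 3. All injured libraries stood above all uninjured ones, and injured replicate 2 was the lowest of them. Its mean was 47.8 ± 22.7 FPKM in injured libraries and 6.03 ± 1.13 FPKM in uninjured libraries (SD, n = 3 each), a ratio of means of 7.93. Single pairs of libraries, injured over uninjured, ranged in ratio from 3.11 to 13.4. On the log2 scale the difference was 2.67, and it was 3.15 without injured replicate 2. By level, Sprr1a took rank 455, 1387 and 535 of the 8078 entries in injured replicates 1 to 3, against rank 5509, 4759 and 4524 in uninjured replicates 1 to 3.

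Krtdap, the secreted keratinocyte protein, had levels of 13, 3.33 and 17.9 FPKM across injured replicates 1, 2 and 3. In the uninjured group it was listed at 0.001 FPKM, the lowest value of the table, in replicates 1 and 3 and at 0.619 FPKM in replicate 2. The groups did not overlap, and injured replicate 2 was again the lowest injured library. No ratio is given against values at the bottom of the table. The log2 difference was 3.16, and it was 3.79 without injured replicate 2. Krtdap was the least abundant of the 3 genes in every library, with rank 2983, 6825 and 2206 in injured replicates 1 to 3, against rank 7778 in uninjured replicate 2.

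S100a11, the annexin partner, had levels of 538, 141 and 204 FPKM across injured replicates 1, 2 and 3 and of 71.1, 172 and 131 FPKM in uninjured replicates 1, 2 and 3. Here the groups overlapped, because injured replicate 2 lay below uninjured replicate 2. Means were 294 ± 213 FPKM in injured libraries and 125 ± 51.0 FPKM in uninjured libraries (SD, n = 3 each), a ratio of 2.36, and single pairs ranged from 0.818 to 7.57. The log2 difference was 1.08, and it was 1.49 without injured replicate 2, 0.53 without injured replicate 1 and 0.73 without uninjured replicate 1. S100a11 was abundant in both groups, at rank 25, 94 and 105 in injured replicates 1 to 3, against rank 267, 108 and 153 in uninjured replicates 1 to 3.

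**Figure D2:**
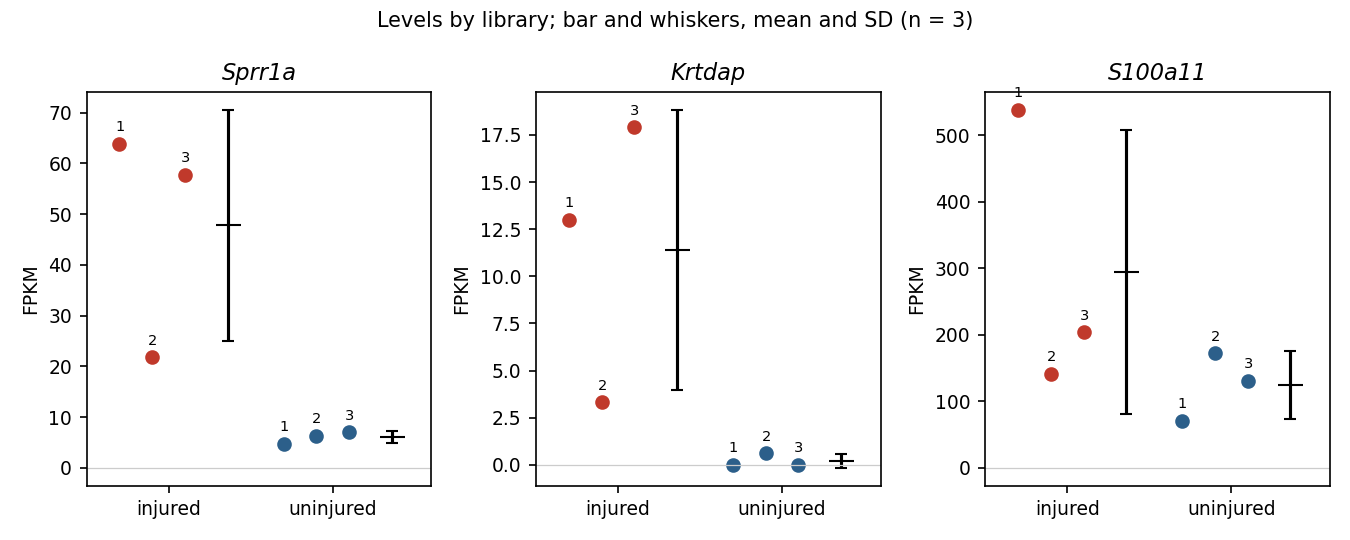
Level in FPKM (y axis, linear) of Sprr1a, Krtdap and S100a11 in each injured (red) and uninjured (blue) library, numbered by replicate, with the group mean and SD beside the points. Sprr1a and Krtdap separate the groups, while S100a11 in injured replicate 2, at 141 FPKM, lies among the uninjured libraries.

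The 3 genes were thus not one pattern at different heights. Relative to the uninjured mean, injured replicates 1, 2 and 3 stood at 3.22, 1.71 and 3.08 for Sprr1a, at 3.57, 1.88 and 4.01 for Krtdap and at 2.19, 0.27 and 0.79 for S100a11 on the log2 scale. In level, injured replicate 2 reached 35.8%, 21.6% and 38.1% of the mean of the other two injured libraries for Sprr1a, Krtdap and S100a11. S100a11 alone had injured replicate 3 nearer to replicate 2 than to replicate 1. The ratio of S100a11 to Sprr1a was 8.42, 6.47 and 3.52 in injured replicates 1 to 3, against 14.9, 27.4 and 18.7 in uninjured replicates 1 to 3, so every injured ratio lay below every uninjured one. Over the 6 libraries Pearson's r of log2 values was 0.983 between Sprr1a and Krtdap, 0.786 between Sprr1a and S100a11 and 0.75 between Krtdap and S100a11. The points share 2 groups and the same libraries, which raises r for any genes that separate the groups.

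All 3 genes passed the low-value filter, Krtdap only through its injured libraries. Of the 3, 2 genes, Sprr1a and Krtdap, had injured libraries that did not overlap the uninjured ones, on the high side. Of all genes tested, 12.0% did so on the high side and 6.75% on the low side. With limma over the 7987 genes, 0 were higher in injured libraries at an adjusted p of 0.05 and 1, 0.0125%, was lower. With p unadjusted, 7.15% were higher and 4.04% lower at 0.05. When limma was run with neither the trend nor the robust option, 0.0376% were higher and 0.0376% lower. Without injured replicate 2, which leaves 2 injured libraries, 3.43% were called higher and 1.14% lower, and 29.4% lay above all uninjured libraries and 14.5% below them. The median log2 difference of all genes was 0.16, which became -0.01 with upper-quartile scaling and 0.01 with quantile normalization, and other differences are to be read against that shift. Without injured replicate 2 it was 0.17.

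Sprr1a and S100a11 lie in the epidermal differentiation complex, a cluster of cornified envelope and S100 genes on mouse chromosome 3, whereas Krtdap lies on chromosome 7. From S100a1 to S100a10, RefSeq on GRCm38.p6 places 70 protein-coding genes in this cluster, of which 10 had an entry in the table. All of these were S100 genes apart from Sprr1a. None of the 35 genes between Sprr1a and S100a11, which include involucrin, filaggrin and the late cornified envelope genes, had an entry, and they were not analysed here. Of 52 symbols of envelope genes looked for in the cluster besides Sprr1a, among them the Sprr2 genes, Sprr3 and loricrin, 0 had an entry. Of the 8 neighbours with an entry, 6 had a positive difference and 2 a negative one, where 62.9% of all genes had a positive one. Their median was 0.76, which was 0.58 after upper-quartile scaling and 1.22 without injured replicate 2. These 8 are S100 genes and are counted again in the family below, so the tallies are not separate results.

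The S100 family bind calcium through EF hands and act on annexins, the cytoskeleton and, when secreted, on inflammation. Of 15 other family symbols, 9 were tested. A positive difference was found for 7 of the 9, where 62.9% of all genes had one and 37.1% a negative one, and the median was 0.71 (0.53 after upper-quartile scaling and 1.17 without injured replicate 2). No S100 gene passed at an adjusted p of 0.05 by limma with or without trend and robust steps, and 3 were higher at an unadjusted p of 0.05, against 7.15% of all genes, and these were S100a4, S100a10 and S100a16. Without injured replicate 2 the adjusted p was 0.0104 for S100a10 and 0.0365 for S100a16 (limma), 2 of 9 where 3.43% of all genes were called higher.

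S100a10, which pairs with annexin A2, lies next to S100a11 and stood at 253, 58.9 and 272 FPKM in injured replicates 1 to 3 and at 53.2, 63.3 and 66.1 FPKM in uninjured replicates 1 to 3. Unlike S100a11 it was as high in injured replicate 3 as in replicate 1, and replicate 2 lay within the uninjured range. S100a16 was at 76.2, 29.9 and 68.4 FPKM against 24.2, 28.1 and 34.3, with replicate 2 again inside the uninjured range. S100a4, a regulator of cell motility through non-muscle myosin, was at 13.8, 9.71 and 15.2 FPKM in injured libraries against 2.09, 5.11 and 7.30 in uninjured ones. It was the one tested gene of the family whose groups did not overlap, 1 of 9 where 12.0% of all genes did so on the high side.

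S100a8 and S100a9, which form the calprotectin of neutrophils and also appear in wounded keratinocytes, followed the library order of S100a11 in part. S100a8 was at 41.4, 11.3 and 22.9 FPKM in injured replicates 1 to 3, against 6.34, 19.1 and 18.2 FPKM in uninjured replicates 1 to 3. S100a9 was at 41.7, 9.78 and 18.4 FPKM in the injured libraries against 6.87, 17.1 and 10.9 in the uninjured ones. Like S100a11, both were highest in injured replicate 1 and lowest in uninjured replicate 1, and their groups overlapped. S100a14, an epithelial family member, was at 25.4, 10.3 and 22.2 FPKM against 12.7, 18.9 and 11.1. S100a1, best known from heart muscle, was at 91.4, 65.1 and 46.3 FPKM in injured libraries against 84.8, 108 and 114 in uninjured ones, with a log2 difference of -0.64. S100a13 was listed at 0.001 FPKM in injured replicate 2 and in uninjured replicate 1 and reached 9.83 and 7.89 in the other injured libraries, against 16.4 and 14.7. S100z stayed at 3.43 FPKM or below in every library.

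Annexins bind membranes in the presence of calcium, and Anxa1 and Anxa2 are partners of S100a11 and S100a10. Of the 13 symbols listed for annexins and S100 partners 10 were tested, with 9 positive differences, 1 negative and a median of 0.58 (0.40 after upper-quartile scaling and 0.87 without injured replicate 2). None passed with limma in either form, and 2, Anxa1 and Anxa4, were higher at an unadjusted p of 0.05, against 7.15% of all genes. Anxa1 was at 371, 100 and 473 FPKM in injured replicates 1 to 3 and at 78.0, 50.6 and 76.5 FPKM in uninjured replicates 1 to 3. All its injured libraries stood above the uninjured ones, as they did for Anxa4, at 49.1, 33.0 and 39.9 against 19.0, 23.5 and 26.2 FPKM, and for Anxa5, at 113, 116 and 124 against 81.5, 79.5 and 87.7 FPKM. These were 3 of the 10 tested, where 12.0% of all genes did not overlap on the high side. For Anxa5 the log2 difference of 0.50 was 0.32 after upper-quartile scaling.

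Anxa2 overlapped between groups, at 176, 68.3 and 163 FPKM in injured libraries against 65.2, 80.9 and 92.2 in uninjured ones. Anxa3 was at 59.4, 10.6 and 99.6 FPKM against 18.1, 13.5 and 12.7, and Anxa8 at 160, 65.3 and 153 FPKM against 73.6, 72.9 and 71.4. In both, injured replicate 2 lay below every uninjured library. Without it the adjusted p by limma was 0.0107 for Anxa1, 0.0130 for Anxa3 and 0.0436 for Anxa8, 3 of 10 where 3.43% of all genes were called higher. The remaining annexins, Anxa6, Anxa7 and Anxa11, had log2 differences of 0.25, 0.39 and 0.44, and Ahnak, a giant scaffold protein that binds S100a10 with annexin A2, had -0.04.

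**Figure D3:**
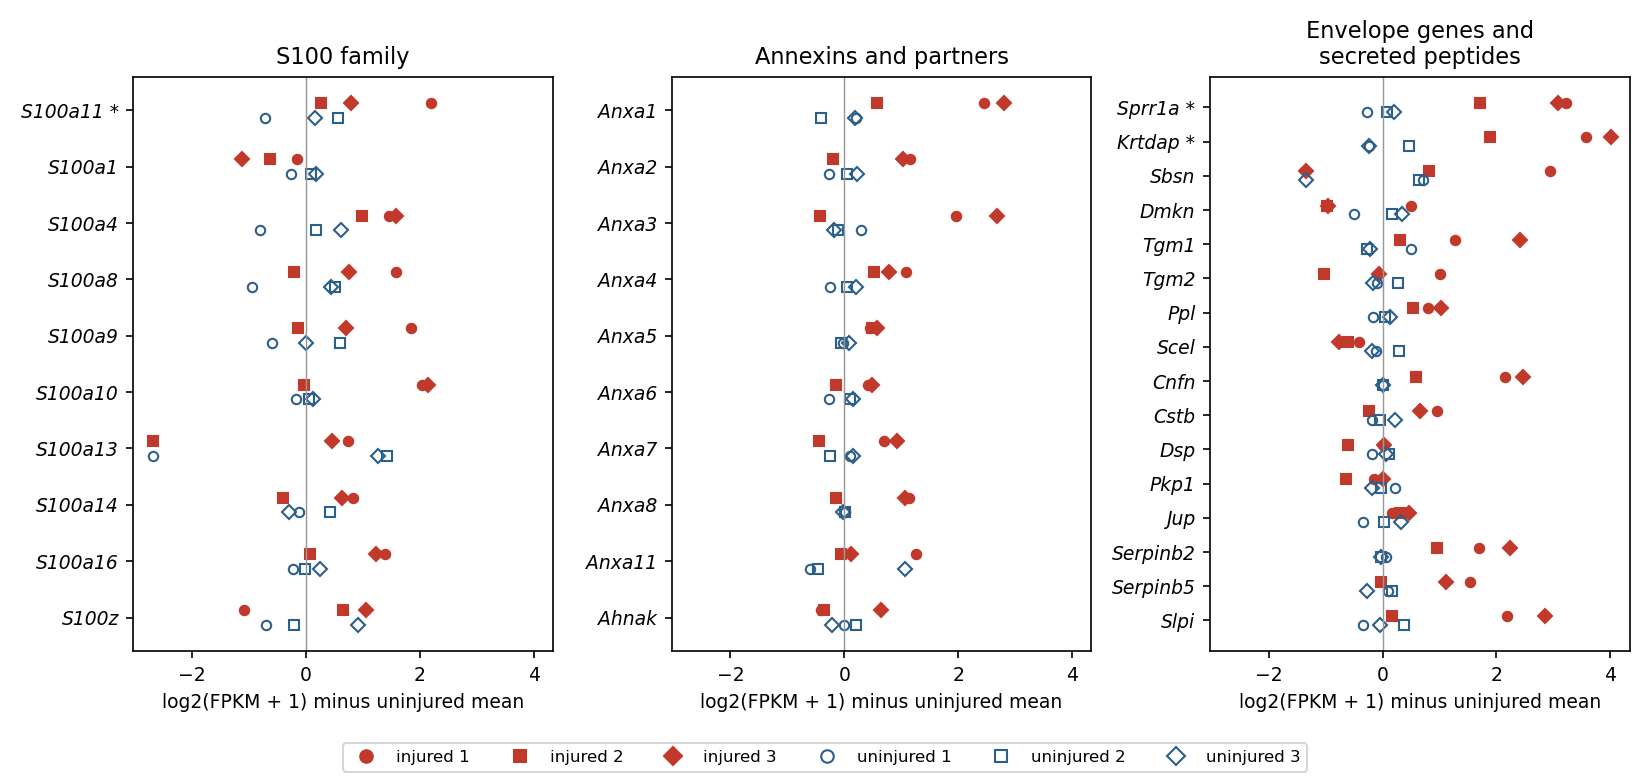
Each row is a gene and the x axis is log2(FPKM + 1) minus its mean over the uninjured libraries, with injured libraries filled and uninjured ones open, and symbols by replicate. Starred rows are the 3 genes described here. Injured replicate 2 (filled squares) lies left of the other injured libraries for Sprr1a, Krtdap, Anxa1, Anxa3 and S100a10.

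Krtdap belongs with Sbsn and Dmkn to a set of secreted proteins of stratified epithelia whose genes neighbour one another. Sbsn reached 18.5 and 3.50 FPKM in injured replicates 1 and 2 and was listed at 0.001 in replicate 3, against 3.14 and 2.97 FPKM in uninjured replicates 1 and 2 and 0.001 in replicate 3. Dmkn was at 5.45, 1.31 and 1.33 FPKM in injured libraries against 2.21, 4.08 and 4.72 in uninjured ones. Neither followed Krtdap: both overlapped between groups, and the log2 differences were 0.80 and -0.48, or 0.79 and -0.23 without injured replicate 2. Neither passed at an adjusted or unadjusted p of 0.05 with limma. Both Sbsn and Dmkn held TGANTCA in their promoter windows, as did 4.21% of the genes tested. With that share, the 0 of 7 other S100 genes with a window does not set that family apart. The count was 1 of 8 for annexins and partners and, for the lists below, 3 of 8 for envelope and 0 of 2 for suprabasal genes. It was 4 of 15 for wound-edge genes, 0 of 16 for regulators and 1 of 7 for genes of regenerating neurons.

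Among genes that build or cross-link the cornified envelope or guard it with protease inhibitors, 12 of 20 listed symbols were tested, with 8 positive and 4 negative differences and a median of 0.62 (0.45 after upper-quartile scaling and 0.86 without injured replicate 2). None passed by limma in either form, and with p unadjusted 4 were higher and 1 was lower at 0.05, against 7.15% and 4.04% of all genes. The most abundant members were Cstb, an inhibitor of cathepsins, at 284, 124 and 230 FPKM in injured libraries against 128, 142 and 171 in uninjured ones, and the desmosomal linker Dsp, at 71.7, 46.3 and 72.2 FPKM against 62.6, 76.9 and 74.1. Tgm2 was at 76.6, 17.9 and 36.3 FPKM against 35.0, 45.9 and 33.6, and the junction protein Jup at 34.8, 38.9 and 43.4 FPKM against 24.3, 31.6 and 39.0. All of these overlapped between groups.

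Several scarce envelope genes, named after their values were seen, had the shape of Krtdap. Cnfn, which encodes the envelope protein cornifelin, was at 3.43, 0.497 and 4.57 FPKM in injured replicates 1 to 3 and listed at 0.001 FPKM in all 3 uninjured libraries. Serpinb2, a serpin cross-linked into the envelope, was at 2.29, 0.981 and 3.83 FPKM in injured libraries, against 0.0573 in uninjured replicate 1 and 0.001 in uninjured replicates 2 and 3. The envelope scaffold periplakin (Ppl) was at 5.77, 4.68 and 6.97 FPKM against 2.47, 3.02 and 3.26. For these genes the groups did not overlap. Scel, which encodes the envelope protein sciellin, lay below the uninjured libraries in all injured ones, at 16.9, 14.7 and 13 FPKM against 21.1, 28.2 and 20.1. Of the 12 genes tested, 3 thus lay above and 1 below, against 12.0% and 6.75% of all genes. The keratinocyte transglutaminase Tgm1, which cross-links Sprr proteins, was at 3.18, 1.13 and 8.17 FPKM in injured libraries against 1.45, 0.422 and 0.476 in uninjured ones, and overlapped. Without injured replicate 2, Cnfn, Slpi and Serpinb5 passed, at adjusted p = 0.0360, 0.0304 and 0.0401 by limma, 3 of 12 where 3.43% of all genes were called higher. Cnfn, Slpi and Serpinb2 passed the low-value filter only through their injured libraries, so they could be found only on the high side.

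Genes of suprabasal and early keratinocyte differentiation were mostly not analysed here, with 5 of 24 listed symbols tested. Of these 4 had a positive difference and 1 a negative one, with a median of 0.34 (0.17 after upper-quartile scaling), and none passed at an adjusted or unadjusted p of 0.05 by limma. Without injured replicate 2 the median was 0.78 and 1 of the 5 passed, the gap junction gene Gjb2 (limma adjusted p = 0.0403), named after its values were seen. Aldh3a1, an aldehyde dehydrogenase of exposed epithelia, was at 95.8, 60.1 and 61.8 FPKM in injured libraries against 93.7, 129 and 117 in uninjured ones. Lgals3, a galectin, was at 29.8, 10.0 and 52.9 FPKM against 16.7, 19.0 and 28.0, and Ly6d, a surface protein of stratified epithelia, at 48.4, 15.5 and 31.3 FPKM against 18.9, 22.7 and 25.5. Fabp5, a fatty acid carrier, was at 5.72, 8.90 and 13.8 FPKM against 8.97, 8.86 and 3.97. Each of them overlapped between groups. None of the 10 marker symbols fixed for cornified or suprabasal squamous cells, among them Krt1, Krt10, Lor and Ivl, had an entry of its own.

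Genes of the migrating wound edge had a median difference of 0.86 over 19 genes tested of 32 listed (0.73 after upper-quartile scaling and 1.24 without injured replicate 2), with 16 positive and 3 negative. None passed by limma in either form, and 2 were higher at an unadjusted p of 0.05, against 7.15% of all genes. With all libraries, 2 of the 19 lay above all uninjured libraries and 1 below them, against 12.0% and 6.75% of all genes. Without injured replicate 2, 6 of the 19 passed, among them Plaur, Plau and Emp1, against 3.43% of all genes. Plau passed the low-value filter only through its injured libraries. Emp1, an epithelial membrane protein, was at 72.4, 11.6 and 105 FPKM in injured replicates 1 to 3, against 14.8, 12.1 and 9.44 FPKM in uninjured replicates 1 to 3. Phlda1 was at 312, 16.2 and 87.5 FPKM against 109, 23.6 and 28.5, and the myosin Myh9 at 35.6, 19.5 and 47.7 FPKM against 22.1, 25.5 and 26.2. The laminin chain Lamb3, at 38.4, 28.0 and 46.425 FPKM against 54.7, 46.45 and 48.5, was the 1 below, by a narrow margin. In Emp1 injured replicate 2 lay within the uninjured range, whereas in Sprr1a it was above it. The wound keratins Krt16 and Krt17 share a joined entry with other type I keratins and cannot be read singly.

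Since the upstream windows hold AP-1 letters, the Fos and Jun genes were read in the same libraries, a choice made after their values were seen. Whether AP-1 factors act on the 3 genes in these cells was not tested. Fosl1, the Fos relative that accompanies migrating and differentiating keratinocytes, was at 25.3, 1.08 and 43.9 FPKM in injured replicates 1 to 3, against 1.10 and 0.913 in uninjured replicates 1 and 3 and 0.001 in uninjured replicate 2. It was highest in injured replicates 1 and 3, as were Sprr1a and Krtdap. In injured replicate 2 it lay within the uninjured range, and Sprr1a and Krtdap lay above theirs. Without that library Fosl1 passed (limma adjusted p = 0.00637), and with it the adjusted p was 0.407. Fosl1 passed the low-value filter only through its injured libraries. Fos itself was at 259, 104 and 473 FPKM in injured libraries against 464, 243 and 276 in uninjured ones, and Junb at 26.5, 10.2 and 59.8 FPKM against 49.1, 49.7 and 45.9. Neither separated the groups. Fosb, Fosl2 and Jund also overlapped between groups, with log2 differences of 0.36, 0.22 and -0.52. No entry was found for Jun.

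Of 26 tested regulators of keratinocyte differentiation and Sprr genes, 12 had a positive and 14 a negative difference, with a median of -0.02 (-0.18 after upper-quartile scaling), and none passed by limma in either form. The median turned positive, 0.25, without injured replicate 2. At an unadjusted p of 0.05, 1 was higher, Fosl1, and 2 were lower, Grhl2 and Ctgf, against 7.15% and 4.04% of all genes. Trp63, the p63 factor of basal cells, was at 112, 99.5 and 140 FPKM in injured libraries against 187, 194 and 157 in uninjured ones, so all injured libraries lay below the uninjured ones. Of the 26 regulators, 4 lay below in this way and 0 above, against 6.75% and 12.0% of all genes. The YAP target Cyr61 was at 276, 89.8 and 493 FPKM against 244, 188 and 170, and the stress factor Nfe2l2 at 125, 65.4 and 120 FPKM against 84.7, 86.7 and 122. These overlapped.

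Sprr1a is also a gene of injured and regenerating neurons, so the genes known from that setting were read beside it. Of 14 listed symbols 9 were tested, 8 with a positive difference and 1 with a negative one and a median of 0.30 (0.12 after upper-quartile scaling), and none passed at an adjusted or unadjusted p of 0.05 by limma. That tally rests in part on injured replicate 2. Without it the median was 0.10, and the log2 difference was -1.52 in place of 0.14 for Gap43 and -0.82 in place of 0.47 for Stmn2. Gap43, a growth cone protein, was at 2.44, 113 and 2.76 FPKM in injured replicates 1 to 3, against 5.06, 13.1 and 12.0 FPKM in uninjured replicates 1 to 3. Stmn2, a tubulin-binding protein of growing axons, was at 11.1, 135 and 6.04 FPKM against 12.0, 15.8 and 18.7. Both were highest in injured replicate 2, where Sprr1a was lowest among the injured libraries, and lowest where Sprr1a was high. Sox11 and Tubb3 were also highest in injured replicate 2. The other tested genes of the list, like Sprr1a, had their lowest injured level there. Among them, Il6 was at 14.9, 3.54 and 77.0 FPKM against 6.36, 1.81 and 4.02, and Gadd45a at 19.9, 11.8 and 59.9 FPKM against 14.8, 17.4 and 15.9. The cytokine receptor subunit Il6st was at 72.6, 48.8 and 102 FPKM against 95.01, 93.3 and 121, and the feedback inhibitor Socs3 at 29.9, 10.5 and 91.6 FPKM against 25.5, 19.2 and 31.7.

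Markers of the cells that the sort could hold were summed in each library. The 6 horizontal basal cell markers with an entry of their own, of 8 listed, were all present, and summed to 261, 170 and 346 FPKM in injured replicates 1 to 3, against 291, 297 and 260 FPKM in uninjured replicates 1 to 3. Injured replicate 2, the lowest injured library for all 3 genes, was also lowest for these markers and highest for Gap43. Set against that sum, Sprr1a stood at 24.5%, 12.8% and 16.7% in injured libraries and at 1.64%, 2.13% and 2.70% in uninjured ones. S100a11 stood at 206%, 83.1% and 58.8% in injured libraries and at 24.4%, 58.2% and 50.4% in uninjured ones, so that its groups no longer overlapped, by a narrow margin. With all values scaled to the sum, the log2 differences were 2.84 for Sprr1a, 3.26 for Krtdap and 1.26 for S100a11. Trp63 was the most abundant of these markers in every library and was lower in all injured ones, which raises shares of the sum there. Itga6, Itgb4 and Icam1 had log2 differences of 0.79, 0.34 and 0.32, and Egfr and Cd44 of -0.02 and -0.12. Whether S100a11 separates the groups against the markers without Trp63 was not tested.

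Myeloid markers, 6 of 14 listed with an entry, summed to 110, 31.3 and 51.4 FPKM in injured replicates 1 to 3, against 22.2, 55.0 and 44.6 FPKM in uninjured replicates 1 to 3. S100a8 and S100a9 made up the larger part of the sum in each library, and the leukocyte phosphatase Ptprc was at 17.9 FPKM in injured replicate 1 and between 0.343 and 3.52 FPKM elsewhere. Laptm5 and Tyrobp, also myeloid markers, had lower means in injured libraries. Laptm5 was at 1.53, 1.46 and 2.94 FPKM in injured libraries against 3.53, 3.21 and 4.22 in uninjured ones, with no overlap, and Tyrobp at 2.00, 4.80 and 1.97 against 2.02, 10.6 and 3.28. S100a11 was highest in the library with the highest sum and lowest in the library with the lowest, and the part of myeloid cells in its level was not tested. Fibroblast markers, 3 of 5, summed to 32.8 to 101 FPKM in injured libraries against 126 to 220 in uninjured ones. Of these, Dcn was lower in every injured library, at 27.5, 62.5 and 15.3 FPKM against 116, 162 and 145, while Col1a1 and Col1a2 had log2 differences of 0.33 and 0.39. Olfactory neuron markers, 5 of 7, summed to 141, 324 and 119 FPKM in injured replicates 1 to 3. In uninjured replicates 1 to 3 they summed to 415, 546.5 and 726 FPKM. Injured replicate 2 thus had the highest neuronal sum of the injured libraries. Sustentacular markers, 4 of 6, summed to 73.5 to 105 FPKM in injured libraries against 147 to 171 in uninjured ones. Respiratory and gland markers, 3 of 7, summed to 1981 to 6546 FPKM against 4353 to 6327. Of these, Plunc was lower in every injured library, at 2217, 1182 and 2290 FPKM against 4245, 4978 and 3023, as was Lcn11. Reg3g had a log2 difference of 0.43, at 4322, 799 and 2125 FPKM against 1725, 1335 and 1294. No endothelial marker of the 4 listed had an entry.

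**Figure D4:**
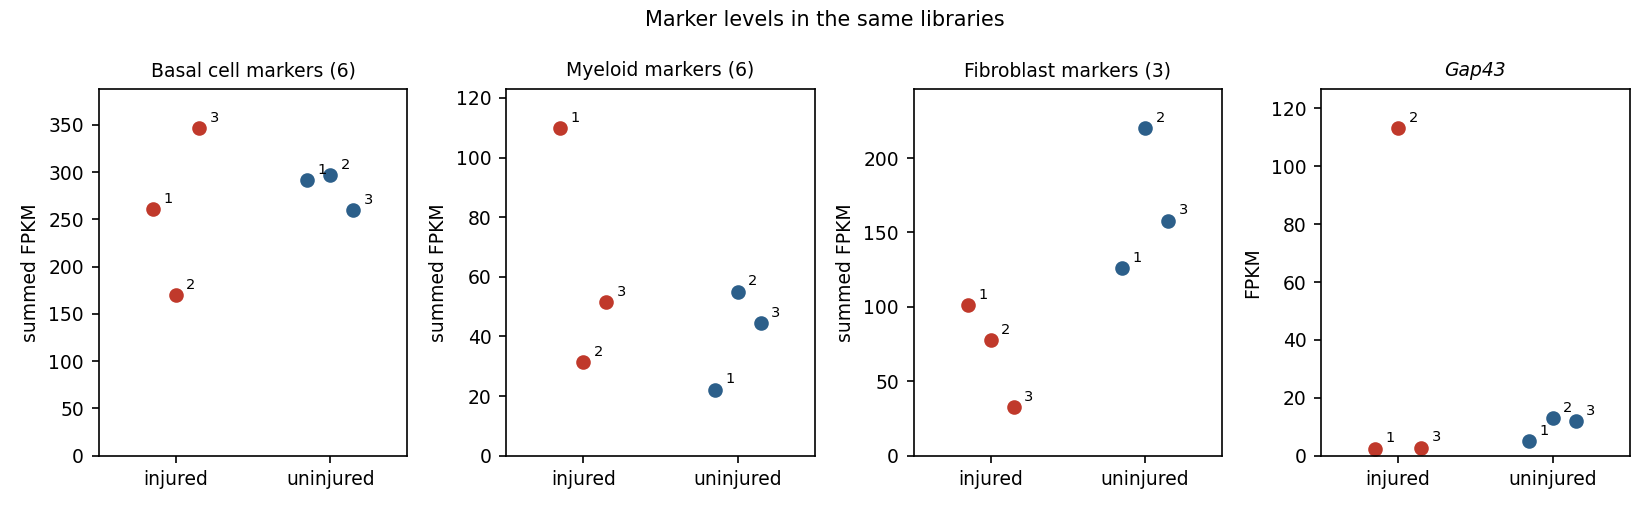
Summed FPKM of the basal cell, myeloid and fibroblast markers and FPKM of Gap43 (y axes, linear from 0) in each injured (red) and uninjured (blue) library, numbered by replicate. Injured replicate 1 has the highest myeloid sum, at 110 FPKM, and injured replicate 2 the highest Gap43 level, at 113 FPKM.

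The genes whose pattern over the 6 libraries was most like each of the 3 were found by Pearson's r of log2 values among the genes tested. For Sprr1a these were Prim1, a primase subunit, with r = 0.9992, Psmd14, a deubiquitinase of the proteasome, then Rpp30, Wbscr22 and Orc2, a subunit of the origin recognition complex, with r = 0.9956. Prim1 was at 14.1, 8.94 and 13.4 FPKM in injured libraries against 4.56, 4.87 and 5.18 in uninjured ones, and so shared the library order of Sprr1a over a smaller range. Krtdap was most like Hnrnpab, an RNA-binding protein, with r = 0.9996, followed by the proteasome subunit Psmb7, the uracil-DNA glycosylase Ung, Vac14 and the histone H2afz, with r = 0.9897. Hnrnpab was at 163, 120 and 175 FPKM in injured libraries against 85.3, 97.2 and 85.0 in uninjured ones.

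S100a11 was most like Cyp20a1, a cytochrome P450, with r = 0.9995, then Fto, a nucleic acid demethylase, Gm5972, Psmd10 and Mpnd, with r = 0.9876. Cyp20a1 was at 12.2, 7.21 and 8.42 FPKM in injured libraries against 5.33, 7.78 and 7.04 in uninjured ones, and like S100a11 it overlapped between groups. No keratinocyte gene from the lists was among these 15. An r above 0.95 was reached with 1.91% of the tested genes for Sprr1a, 1.77% for Krtdap and 0.993% for S100a11, and with 6 points in 2 groups such values are a description.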

How the data were processed

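Polyadenylated RNA of TdTomato-positive cells sorted from olfactory epithelium was sequenced as Nextera XT libraries, 3 injured and 3 uninjured, per the labels. The authors deposited 1 table of values taken here to be FPKM, since Cuffdiff is named in the submitters' processing notes together with FastQC, TopHat and build mm9. Versions, any scaling between libraries, the annotation and the filter behind the 8078 entries are not given in the sources used here. Several symbols are joined in 131 entries, none of which was read as a single gene. The lowest value is 0.001. Summed FPKM per library ran from 164265, in injured replicate 2, to 231755, in injured replicate 3. A single entry, Mir703, made up 8.01%, 11.6% and 18.6% of the sum in injured replicates 1 to 3. In uninjured replicates 1 to 3 it made up 25.4%, 22% and 25.3%. Read depth is unknown, since no steps of whole reads were seen: in any pair of libraries, low-gene ratios within 1% of each other made up 6.38% or less. No counting intervals are given.

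The 7987 genes whose mean reached 1 FPKM, all 3 genes among them, were fitted as log2(FPKM + 1) by limma 3.58.1 (R 4.3.3). The fit had no covariate and used the trend and robust options, with a Benjamini-Hochberg threshold of 0.05. This scale understates changes of low genes. The fit was tested on simulated data beforehand. The 3 genes and the 9 gene lists were chosen with earlier results of these data known. Genes named were those of the S100, annexin and secreted peptide lists, the 4 most abundant of each other list, any past the threshold, the 5 most like each of the 3 genes, and a few chosen after their values were seen. The values of 1 listed gene are not reported here. Alternatives left out each library in turn, added a replicate block, or changed the filter, scaling, pseudocount, variance model or threshold. Scaling to basal cell markers was added after the data were seen. Promoter sequences are RefSeq on GRCm38.p6, with the 50 bases after the start left out. Figures used Python 3.11.15 and matplotlib 3.10.9.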

Additional observations from a re-analysis of the deposited data

How the results depend on the processing

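The log2 differences of the 3 genes kept their sign under every alternative run. Leaving out each library gave 2.39 to 3.15 for Sprr1a, 2.73 to 3.79 for Krtdap and 0.53 to 1.49 for S100a11, and upper-quartile scaling 2.50, 3.05 and 0.90. A pseudocount of 0.1 gave 5.58 for Krtdap, by construction, since its uninjured values lie near 0. With 0 genes higher and 1 lower over all tested, leaving out single libraries gave 0 to 274 higher and 1 to 91 lower, with 274 and 91 without injured replicate 2, and for listed genes, 0 of them higher with all libraries, 0 to 16. Limma without trend and robust steps gave 3 and 3. Lower genes numbered 3 with upper-quartile scaling, 4 with quantile normalization and 2 with a pseudocount of 0.1, and the cause was not tested. A replicate block gave 134 higher and 87 lower, 10 of the listed genes higher. Replicate numbers were not found to pair libraries: deviations from group means correlated at -0.0892, 0.0677 and -0.0776 for equal numbers, and injured replicates 1 and 3 correlated best with another number. Among the named genes tested, other than the 3, 79 were followed through these alternatives. Of them, 1 passed with all libraries, 20 without injured replicate 2, 11 with the block and 2 without uninjured replicate 1. Of the 5 genes most like Sprr1a, Krtdap and S100a11, 2, 1 and 2 stayed without injured replicate 2, and 5, 5 and 4 by Spearman's rho with ties counted. With 6 libraries, 72 genes reached a rho of 1 with Sprr1a and 37 with S100a11. The counts by rho therefore show a shared library order and do not single out the named genes. With 3 libraries a group and unknown depth, values near 0.001 FPKM cannot be told from absence.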
